A study of Homo sapiens with 12 samples.

Results

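The receptors and ligands of the epidermal growth factor receptor (EGFR) family were followed in KYSE70, a cell line from an esophageal squamous cell carcinoma, across 12 RNA-seq libraries. They are 9 genes, found by symbol among the 58884 genes of the table, with 3 receptors (EGFR, ERBB2 and ERBB3) and 6 ligands (AREG, EREG, HBEGF, TGFA, BTC and NRG1). A gene was tested where it had at least 10 normalized counts in at least 4 libraries, which 16950 genes and 7 of the 9 members did. EREG and BTC did not pass. The libraries are 4 of cells without treatment (control), 4 of cells given 10 µM pyrimethamine, an antifolate, and 4 of cells given 20 nM mitoxantrone, a DNA intercalator and topoisomerase II poison, the drugs for 72 h. All were grown in RPMI1640 with 10% fetal bovine serum, so every group had serum growth factors. The series title presents both drugs as NRF2 inhibitors, and the comparisons ask which transcripts differed after each. Neither a vehicle in the control nor separate cultures behind the 4 libraries of a group are given in the labels, so p-values measure only the spread between these libraries, which may be technical.

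EGFR, ERBB2, ERBB3 and ERBB4 are receptor tyrosine kinases that pair up at the cell surface when a ligand binds, and then feed the Ras–ERK and PI3K–Akt pathways. Amphiregulin (AREG), TGF-alpha (TGFA), HB-EGF (HBEGF), epiregulin (EREG), betacellulin (BTC), EGF and epigen (EPGN) bind EGFR, some of them also ERBB4, whereas neuregulins (NRG1 to NRG4) bind ERBB3 or ERBB4. ERBB2 binds no known ligand and serves as the preferred partner, and ERBB3 has little kinase activity of its own. The ligands are made as membrane proteins and released by ADAM proteases. Squamous epithelia use EGFR and its ligands for growth and repair, and EGFR is often amplified in squamous carcinomas of the esophagus.

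Depth was 47.5 M to 94.5 M reads per library. Of 12 squamous epithelial markers 11 had a mean of at least 10 normalized counts, KRT5 among them at 206349 to 279788. Of the 18 markers of fibroblasts, leukocytes and endothelium, most were at or near 0 (DCN at 0 to 3.59, CD3E at 0 to 2.05), but COL1A1, COL3A1, VWF and TEK had means above 10 over the 12 libraries. Some others passed 10 in part of the libraries. PTPRC was at 17.4 to 29.4 and PDGFRB at 10.7 to 19.4 under pyrimethamine, and CSF1R at 5.19 to 17.8 in the control. The summed fibroblast markers, almost all COL1A1 and COL3A1, ranged from 16889 to 17597 in control libraries, 11848 to 13229.8 with pyrimethamine and 5873 to 7647 with mitoxantrone. The summed endothelial markers, mostly VWF, ranged from 967 to 1091, 1102 to 1193 and 186 to 252, and the summed leukocyte markers from 8.31 to 29.9, 21.9 to 48.1 and 1.91 to 7.42, in the same order. Their part in the results below was not tested. Mitoxantrone replicate 1 stood apart. The chi-square statistic per degree of freedom between the read counts of 2 libraries of a group was 24.0 to 34.3 for its pairs and 5.48 to 12.4 for all other pairs, and mitoxantrone results that turn on it are also given without it.

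The promoters of 4 members show how differently built the starts of these genes are. AREG and EREG are neighbors on chromosome 4, HBEGF is the ligand that differed most between the drugs, and EGFR is the receptor with the highest level. The 250 bases before the RefSeq transcription start are given 5′ to 3′ on the gene's strand (GRCh38.p14), with capitals for matches to the motifs named afterwards.
AREG, chr4:74444886-74445135, plus strand: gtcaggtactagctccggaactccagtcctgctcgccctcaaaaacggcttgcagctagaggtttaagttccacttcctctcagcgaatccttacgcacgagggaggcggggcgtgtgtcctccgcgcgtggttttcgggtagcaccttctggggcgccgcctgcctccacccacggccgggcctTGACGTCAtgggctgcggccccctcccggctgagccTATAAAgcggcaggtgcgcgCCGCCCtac
EREG, chr4:74364895-74365144, plus strand: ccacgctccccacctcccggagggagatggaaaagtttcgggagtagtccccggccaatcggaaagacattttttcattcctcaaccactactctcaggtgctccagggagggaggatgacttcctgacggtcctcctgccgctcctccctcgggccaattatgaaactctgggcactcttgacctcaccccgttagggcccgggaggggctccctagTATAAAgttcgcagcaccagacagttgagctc
HBEGF, chr5:140346604-140346853, minus strand: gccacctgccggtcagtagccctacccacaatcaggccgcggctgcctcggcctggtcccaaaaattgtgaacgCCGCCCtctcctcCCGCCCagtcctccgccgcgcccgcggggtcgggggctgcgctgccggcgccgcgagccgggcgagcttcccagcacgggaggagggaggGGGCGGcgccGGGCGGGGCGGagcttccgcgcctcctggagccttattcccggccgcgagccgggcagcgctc
EGFR, chr7:55018767-55019016, plus strand: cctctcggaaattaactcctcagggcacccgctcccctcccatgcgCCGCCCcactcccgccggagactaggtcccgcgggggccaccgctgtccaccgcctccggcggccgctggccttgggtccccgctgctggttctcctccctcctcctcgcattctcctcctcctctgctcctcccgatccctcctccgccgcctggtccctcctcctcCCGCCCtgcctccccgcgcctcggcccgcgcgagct
Both strands were searched for the cAMP response element (CRE) TGACGTCA, the AP-1 site TGANTCA, the core TGACNNNGC of the antioxidant response element bound by NRF2, the GC box GGGCGG and the TATA box TATAAA. AREG held a CRE whose first base lies at -65, a TATA box at -29 and a GC box at -9. Among 35116 promoter windows of 27305 genes, 1.65% held that CRE and 10.7% that TATA box. The EREG window held a TATA box at -32 and none of the other motifs. HBEGF held 5 GC boxes, of which those starting at -63 and -58 overlap by 1 base, and no TATA box. The EGFR window held 2 GC boxes, at -204 and -36, where 42.6% of all windows held at least 1. The AP-1 site (6.57% of all windows) and the antioxidant response core (10.9%) were in none of these 4 windows. RefSeq has a second EGFR start, whose window (not printed, since 116 of its bases lie in annotated exons) held AP-1 sites at -232 and -136 and TATA boxes at -146 and -36, and the ERBB2 window, all exonic, held an AP-1 site at -222. Windows were matched for 7 of the 9 members, all but ERBB3 and NRG1. A match is a description of the letters and not evidence of binding.

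To compare genes, normalized counts were divided by the length of all annotated exons in kilobases (kb). In the control EGFR had the highest level of the family, at 3005 ± 206 normalized counts per kb (SD, n = 4), above 94.6% of the 16921 tested genes with an annotated length. The ligands AREG (2053 ± 54.0), TGFA (1605 ± 30.5) and NRG1 (1210.3 ± 45.2) followed, in counts per kb. ERBB2 stood at 447 ± 11.7 per kb, above 66.9% of the tested genes. HBEGF was at 96.4 ± 9.48 and ERBB3 at 13.4 ± 1.70 per kb, with 16.3% of tested genes below the latter. All levels are means with SD over 4 libraries. Among neighbors in this order, HBEGF and the non-member NRG4 (104 ± 6.10 per kb) did not differ beyond their spread. The order of TGFA and NRG1 depends on the length used: per kb of the longest transcript NRG1 was at 2312 and TGFA at 1848.

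EREG and BTC were all but silent. EREG had 6 reads over the 4 control libraries, 4 with pyrimethamine and 0 under mitoxantrone, and BTC had 1 read, in control replicate 1, and 0 in the other 11 libraries. A library with 0 reads allows up to 3 reads, or 1.98 to 3.95 normalized counts depending on its depth. No fold change is given for these genes, and a difference between groups was not detectable at this depth. AREG (chromosome 4, 74445134 to 74455009, GRCh38) lies close to EREG (74365143 to 74388751) and EPGN (74308473 to 74315307), with BTC farther along (74744759 to 74794686). Within this stretch AREG had at least 3051 normalized counts in every library, while EPGN had 2, 13 and 1 reads over the control, pyrimethamine and mitoxantrone libraries.

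Pyrimethamine lowered EGFR itself and raised 3 EGFR ligands. AREG and HBEGF rose more than 2-fold and TGFA by about 1.25-fold, while the ERBB3 and ERBB4 ligand NRG1 fell by a similar factor. ERBB3 rose and ERBB2 did not pass the test. Of the 7 members tested, 4 were called higher, 2 lower and 1 (ERBB2) not called, where 53.3% of all tested genes were called (26.4% higher and 26.9% lower). The libraries did not overlap for the 6 called members, as for 51.1% of tested genes, so calls and separation as such are common here and the sizes carry the description. A called rise of at least 2-fold was seen in 2 members and in 4.35% of tested genes, and a called fall of that size in 0 members and in 2.35%. The members were chosen with earlier results of these data known. The RNA comes from whole cultures, in which fewer cells of a type and less RNA per cell cannot be told apart.

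EGFR (chromosome 7, 55019021 to 55211628), the receptor of most ligands here, had 40316, 37824, 38242 and 34130.2 normalized counts in control replicates 1 to 4. Under pyrimethamine it had 22729, 23387, 22797 and 22718 in the same order of replicates. Every pyrimethamine library was far below every control library, and the treated libraries lay much closer together than the controls. The log2 change was -0.71 (SE 0.062), 1.64-fold lower (limma adjusted p = 4.58e-09), with 92289 or more reads behind each group.

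ERBB3 (chromosome 12, 56076799 to 56103505), the neuregulin receptor that signals mainly through PI3K, had 129, 109, 107 and 138 normalized counts in control replicates 1 to 4 and 223, 209.9, 211 and 198 under pyrimethamine. The groups did not overlap, and all pyrimethamine libraries were higher. The log2 change was 0.80 (SE 0.14), 1.74-fold higher (adjusted p = 7.25e-05). ERBB2 (chromosome 17, 39687914 to 39730426), the partner without a ligand, had 4573, 4781, 4495 and 4588 in the control and 4625, 4583, 4394 and 4245 under pyrimethamine. Its libraries overlapped, and the log2 change was -0.05 (95% confidence interval -0.14 to 0.05, adjusted p = 0.401).

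AREG, a heparin-binding EGFR ligand of low affinity, had 3276, 3404, 3365 and 3490.2 normalized counts in control replicates 1 to 4. Under pyrimethamine it had 7199, 7216, 6979 and 7121. The spread within each group was a small part of the distance between them. The log2 change was 1.08 (SE 0.072), 2.11-fold higher (adjusted p = 9.78e-11).

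HBEGF (chromosome 5, 140332843 to 140346631), a ligand of EGFR and ERBB4, had 254, 286, 300.0 and 323 normalized counts in control replicates 1 to 4 and 608, 679, 687 and 661 under pyrimethamine. The lowest treated library was above the highest control. Its log2 change of 1.18 (SE 0.10) was 2.27-fold higher (adjusted p = 5.94e-09). TGFA (chromosome 2, 70447280 to 70554193), the ligand most like EGF, had 7915, 7994, 8158 and 7797 in the control and 9934, 10061, 9866 and 10039 under pyrimethamine, again without overlap. Its log2 change was 0.32 (SE 0.064), 1.25-fold higher (adjusted p = 1.99e-04).

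NRG1, on chromosome 8, had 14086, 13966, 13829 and 12959.6 normalized counts in control replicates 1 to 4 and 10954, 11166, 10877 and 10879 under pyrimethamine. Unlike the EGFR ligands it was lower in every treated library, with a log2 change of -0.32 (SE 0.043), 1.25-fold lower (adjusted p = 2.17e-06).

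**Figure D1:**
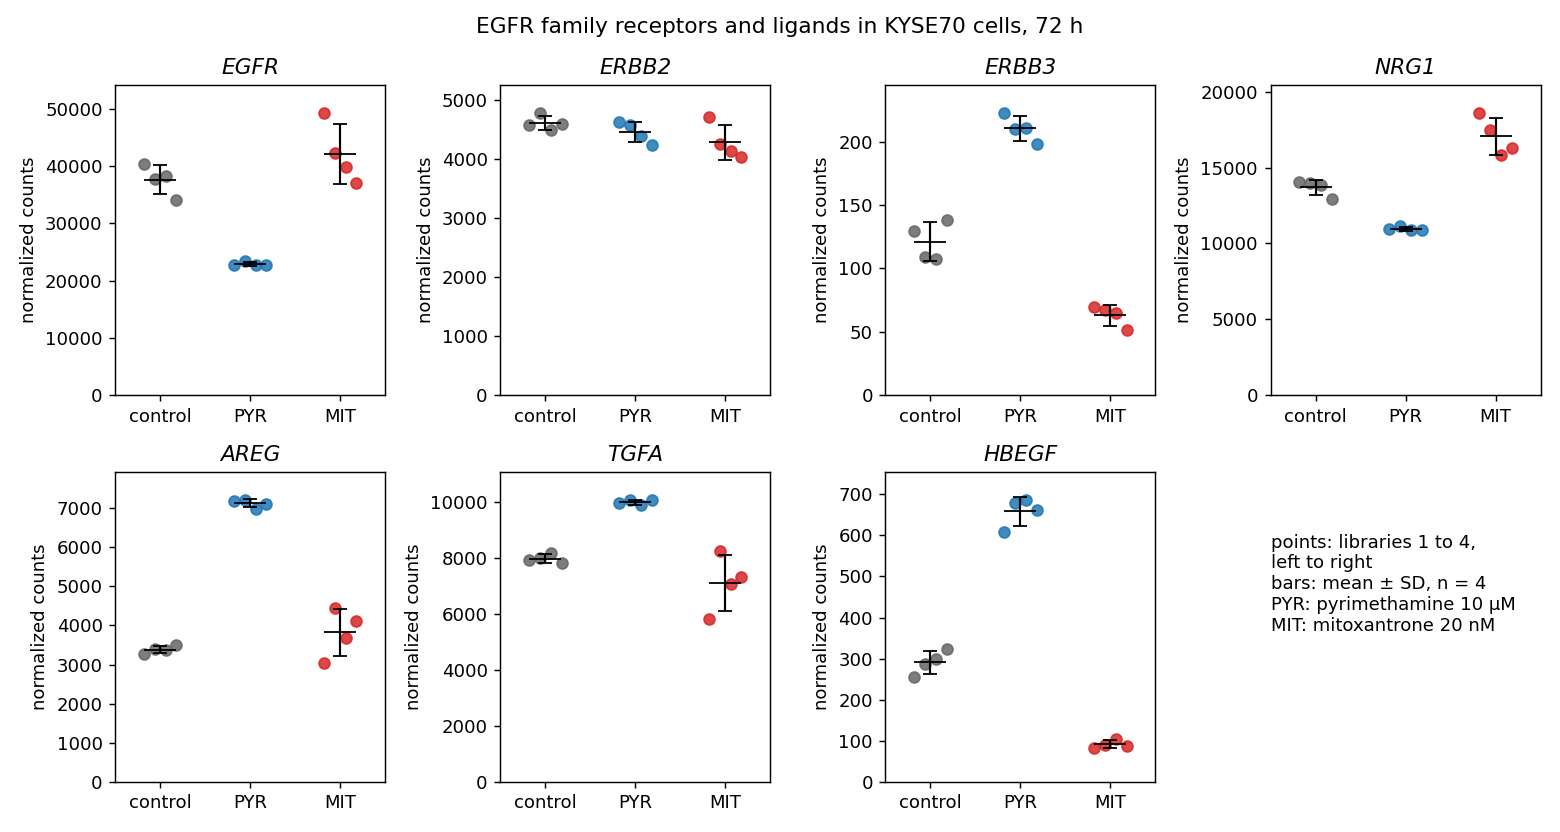
Normalized counts of the 7 tested members (vertical axes, from 0) in the 4 libraries of each group; points are libraries and bars the mean ± SD (n = 4). EGFR and NRG1 are lowest under pyrimethamine, AREG and TGFA highest there, and HBEGF and ERBB3 fall from pyrimethamine through the control to mitoxantrone.

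Mitoxantrone lowered HBEGF and ERBB3 and raised NRG1, each without overlap between libraries. EGFR, ERBB2 and TGFA passed the test with changes of under 1.2-fold, and AREG did not pass. Of the 7 members tested, 2 were called higher, 4 lower and 1 (AREG) not called, where 69.3% of all tested genes were called (33.5% higher and 35.8% lower). Libraries did not overlap for 3 members, where 60.9% of tested genes had no overlap. A called fall of at least 2-fold was seen in 1 member, HBEGF, and in 13.8% of tested genes, and a called rise of that size in 0 members and in 3.88%.

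HBEGF had 82.6, 88.7, 105 and 87.0 normalized counts in mitoxantrone replicates 1 to 4, against 254 to 323 in the control. The highest treated library was far below the lowest control. The log2 change was -1.67 (SE 0.10), 3.18-fold lower (adjusted p = 8.13e-12). ERBB3 had 69.2, 66.8, 64.3 and 51.1 under mitoxantrone, against 107 to 138. Its log2 change was -0.93 (SE 0.14), 1.91-fold lower (adjusted p = 6.61e-06), and 246 reads over the 4 treated libraries lie behind it. Under quantile normalization it was -0.57 (adjusted p = 0.00117).

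NRG1 had 18606, 17494, 15856 and 16329 normalized counts in mitoxantrone replicates 1 to 4, all above the control libraries. The log2 change was 0.31 (SE 0.043), 1.24-fold higher (adjusted p = 1.48e-06). Without mitoxantrone replicate 1, the changes of these 3 genes were -1.62 for HBEGF, -0.98 for ERBB3 and 0.27 for NRG1, all still called.

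The other 4 members changed little, and whether they were called turned on single libraries or on the processing. EGFR had 49276, 42338, 39938 and 36994 normalized counts in mitoxantrone replicates 1 to 4, of which 2 lay within the control range. Its log2 change of 0.16 (SE 0.062, adjusted p = 0.0293) was 0.08 without mitoxantrone replicate 1 (adjusted p = 0.126) and 0.11 without control replicate 4 (0.129), and the call was also lost without mitoxantrone replicate 2 (0.0567). Under quantile normalization the direction turned, to -0.06 (adjusted p = 0.440). With all libraries kept, it was 0.06 after rescaling to an equal total (adjusted p = 0.448) and 0.11 after upper-quartile rescaling (0.104). The EGFR call was also lost without a variance trend (adjusted p = 0.106). Over all 25 alternatives its adjusted p ranged from 0.00236 to 0.448.

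TGFA had 5822, 8239, 7043 and 7293 under mitoxantrone, a group whose lowest library was replicate 1 and whose highest was above every control. Its log2 change of -0.18 (SE 0.064, adjusted p = 0.0182) was -0.09 without mitoxantrone replicate 1, where the call was lost (adjusted p = 0.0704). The TGFA call was also lost without a variance trend (adjusted p = 0.0819). It was kept in the other 23 of 25 alternatives, with -0.25 (adjusted p = 4.07e-04) without mitoxantrone replicate 2. AREG had 3051, 4450.4, 3671 and 4122, with replicate 1 below and the other libraries above all controls. Its log2 change was 0.16 (95% confidence interval 0.01 to 0.31, adjusted p = 0.0512), and it was not called. Without replicate 1 it was 0.27 and called (adjusted p = 2.47e-05), and without replicate 2 it was 0.08 (adjusted p = 0.261). It was also called with edgeR (adjusted p = 0.0231) and DESeq2 (0.0278) on the read counts, and over all 25 alternatives its adjusted p ranged from 2.47e-05 to 0.444. ERBB2 had 4714, 4261, 4132 and 4042, with replicate 1 within the control range. Its log2 change of -0.11 (SE 0.046, adjusted p = 0.0431) was lost in 12 of 25 alternatives, edgeR (adjusted p = 0.0552) and DESeq2 (0.0516) on the read counts among them, and without any 1 of control replicates 1, 2 and 4, mitoxantrone replicates 2, 3 and 4 and pyrimethamine replicate 3.

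**Figure D2:**
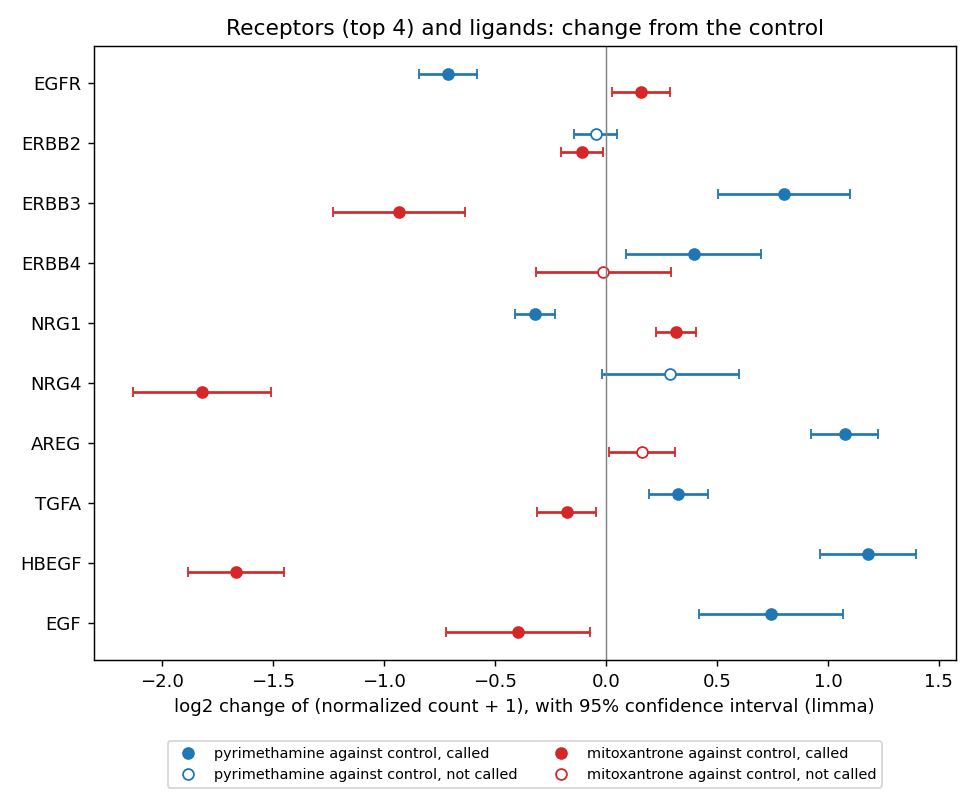
Log2 change from the control (horizontal axis, normalized count + 1) with its 95% confidence interval for receptors (top 4 rows) and ligands, pyrimethamine in blue and mitoxantrone in red, filled where called. Both comparisons use the same control libraries. HBEGF runs from -1.67 under mitoxantrone to 1.18 under pyrimethamine, and NRG2 is not drawn.

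Between the drugs, 6 of the 7 tested members were called, where 76.4% of tested genes were (36.9% higher and 39.5% lower under mitoxantrone), and ERBB2 was not (log2 change -0.06, 95% confidence interval -0.15 to 0.04, adjusted p = 0.243). EGFR and NRG1 were higher under mitoxantrone than under pyrimethamine, 1.83-fold (adjusted p = 3.14e-11) and 1.55-fold (adjusted p = 1.43e-11). HBEGF was 7.2-fold lower, with a log2 change of -2.85 (SE 0.10, adjusted p = 3.84e-16), the largest change of a member in any comparison. ERBB3 was 3.33-fold lower (adjusted p = 3.83e-10), AREG 1.88-fold (1.79e-10) and TGFA 1.42-fold (3.34e-07). The 6 called members had no overlap between the libraries of both drugs, as had 68.8% of tested genes. A called change of at least 2-fold was a fall in 2 members (HBEGF and ERBB3) and 17.1% of tested genes, and a rise in 0 members and 8.06%. These calls held in all 25 alternatives run. The ERBB2 change passed in 3 of them: upper-quartile rescaling (-0.12, adjusted p = 0.0224), quantile normalization (-0.11, 0.0377) and without mitoxantrone replicate 1 (-0.11, 0.0188).

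The mix of receptor transcripts moved with these changes. Per kb, EGFR made up 86.4% ± 0.910 of the summed ERBB receptors in control libraries, 79.6% ± 0.561 with pyrimethamine and 88.6% ± 0.601 with mitoxantrone (SD over 4 libraries). ERBB2 took 12.9% ± 0.844, 18.8% ± 0.536 and 11.0% ± 0.535, and ERBB3 0.387% ± 0.0653, 1.01% ± 0.0439 and 0.183% ± 0.0144, in the same order. These shares depend on the length used, and per kb of the longest transcript ERBB2 took 19.5%, 27.5% and 16.8%, in the same order of groups. Receptors summed to 3475 ± 204, 2298 ± 37.4 and 3798 ± 446 normalized counts per kb. Ratios within a library do not depend on how libraries were scaled. ERBB2 to EGFR rose 1.59-fold under pyrimethamine, a log2 difference of 0.67 (exact permutation p = 0.0286, two-sided, which is the least possible with 70 arrangements, adjusted p = 0.0286 over 6 tests). Under mitoxantrone the same ratio was 1.2-fold lower, a log2 difference of -0.26 (exact permutation p = 0.0286, adjusted p = 0.0286). That difference was lost, at an adjusted p of 0.0571, without control replicate 4 (-0.22), mitoxantrone replicate 1 (-0.23) or mitoxantrone replicate 2 (-0.26). With a library left out the test has fewer arrangements, so its p moves in coarser steps. Every ERBB2 to EGFR ratio under mitoxantrone (log2 -3.39 to -3.19) was below every control ratio (-3.14 to -2.89). ERBB3 to EGFR rose 2.86-fold under pyrimethamine and fell 2.13-fold under mitoxantrone, log2 differences of 1.52 and -1.09 with the same exact permutation p of 0.0286. Every ERBB3 to EGFR ratio under mitoxantrone was below every control, and every ratio under pyrimethamine above.

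**Figure D3:**
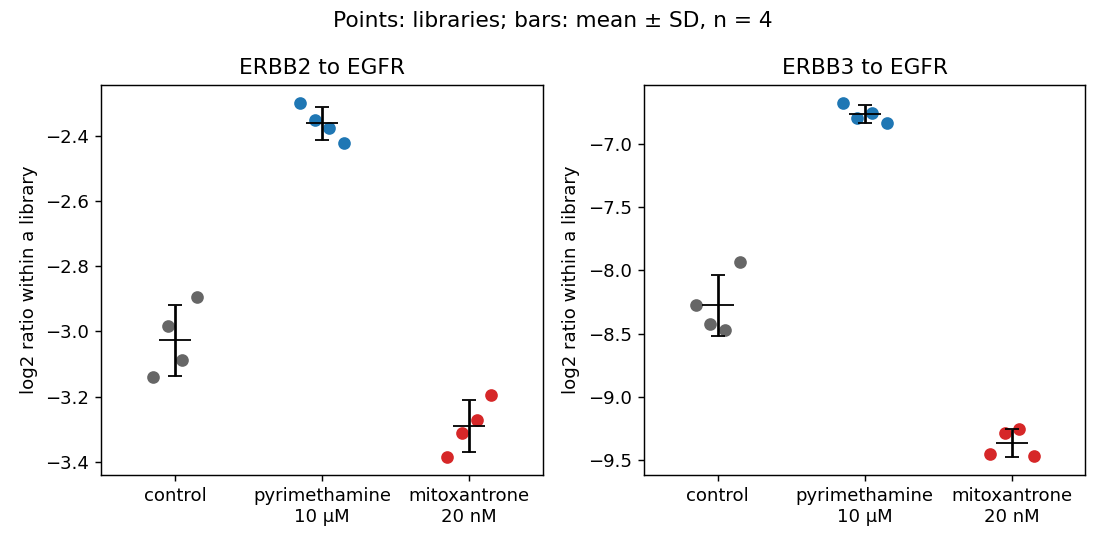
Log2 ratio of ERBB2 to EGFR (left) and ERBB3 to EGFR (right) in each library, from normalized counts + 1 without division by length; points are libraries and bars the mean ± SD (n = 4). The group means are -3.03, -2.36 and -3.29 on the left and -8.28, -6.76 and -9.37 on the right, for control, pyrimethamine and mitoxantrone.

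Among ligand transcripts AREG took the largest mean share in each group. Per kb, it made up 40.1% ± 1.09 of all 11 ligands in control libraries, 56.0% ± 0.424 with pyrimethamine and 43.2% ± 3.10 with mitoxantrone (SD over 4 libraries). TGFA took 31.4% ± 0.379, 26.0% ± 0.152 and 26.7% ± 1.48, its share being lower under pyrimethamine although its level was higher. NRG1 took 23.7% ± 0.852, 12.5% ± 0.0677 and 28.4% ± 4.02, and HBEGF 1.88% ± 0.183, 2.83% ± 0.158 and 0.567% ± 0.0812. Per kb of the longest transcript NRG1 took 32.0%, 17.7% and 37.4%, and AREG 37.8%, 54.9% and 39.7%. By that length the mitoxantrone shares of AREG (SD 3.50) and NRG1 (SD 4.55) did not differ beyond their spread. Without mitoxantrone replicate 1 the mitoxantrone shares were 44.7% for AREG, 27.4% for TGFA and 26.4% for NRG1. All ligands together came to 5117 ± 49.7, 7725 ± 84.0 and 5350.1 ± 512 normalized counts per kb. Under pyrimethamine AREG (4326 ± 65.6 per kb) and TGFA (2009.8 ± 18.5) stood above EGFR (1829.6 ± 25.7), whereas in the control EGFR stood above every ligand. Per kb of the longest transcript TGFA (2314) and EGFR (2333) under pyrimethamine differed by less than their spread. These sums and shares are descriptions and carry no test.

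**Figure D4:**
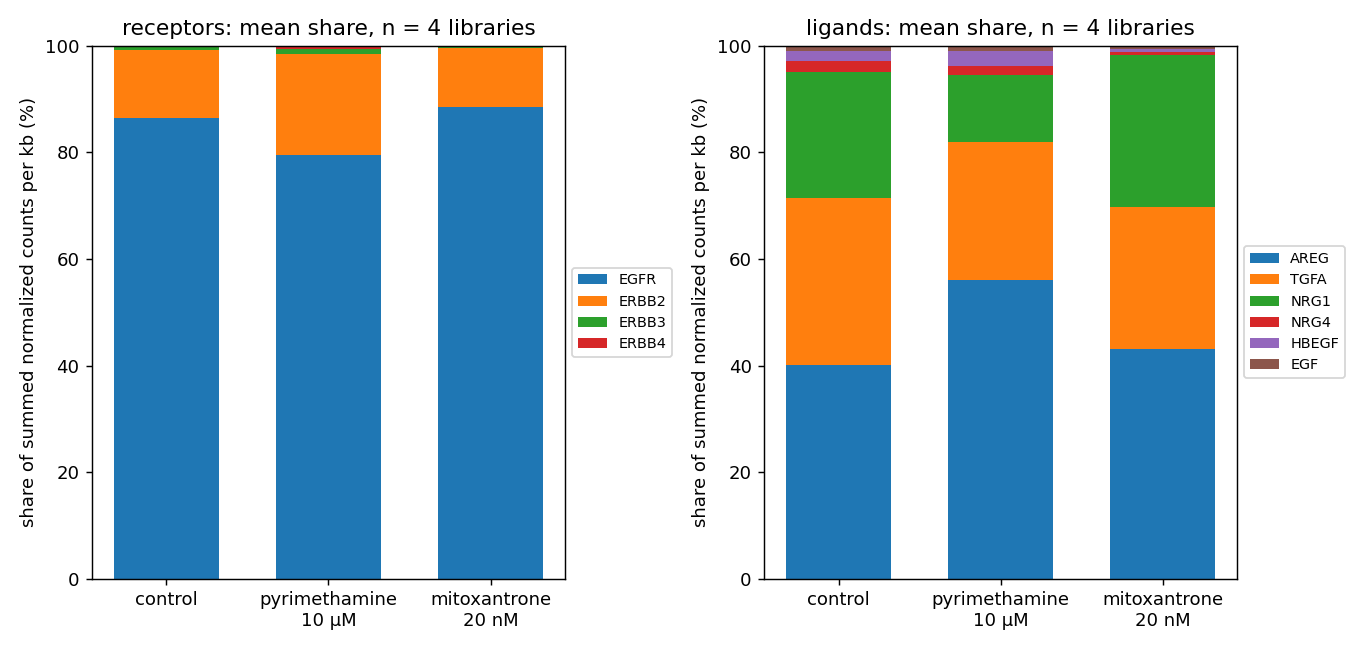
Mean share of each gene (vertical axis, percent of summed normalized counts per kb, n = 4 libraries) among the 4 receptors (left) and among the ligands (right) in each group; 5 ligands at under 0.2% are not drawn. AREG widens from 40.1% in the control to 56.0% under pyrimethamine as NRG1 narrows from 23.7% to 12.5%.

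The other receptor and ligands of the family also differed between groups in part. EGF, the founding ligand, had 286, 225, 243 and 220.0 normalized counts in control replicates 1 to 4, 378, 478, 412 and 365 under pyrimethamine and 242, 123, 212 and 181 under mitoxantrone. It rose under pyrimethamine, with a log2 change of 0.74 (SE 0.16, adjusted p = 3.81e-04), and fell under mitoxantrone, with -0.40 (SE 0.16, adjusted p = 0.0289), where 1 treated library lay within the control range. NRG4, a ligand of ERBB4, went from 499 to 568 in the control to 109 to 227 under mitoxantrone, a log2 change of -1.82 (SE 0.15, adjusted p = 5.82e-10). Of its exon sequence, 38.1% overlaps FBXO22 on the opposite strand, and without a stated strand setting reads of the pair cannot be told apart. Among the members, 7.41% of ERBB2 exon sequence overlaps PGAP3 and MIEN1, and 1.49% of EGFR exon sequence EGFR-AS1, all on opposite strands. ERBB3 shares 0.343% of its exon sequence with AC034102.2, which lies on the same strand. NRG2 fell under mitoxantrone from 149 reads over the control libraries to 16 (log2 change -3.12, SE 0.50, adjusted p = 1.20e-05), with 0 reads in mitoxantrone replicate 1. ERBB4, the neuregulin receptor with full kinase activity, rose under pyrimethamine from 119 to 136 in the control to 165 to 180.3 (log2 change 0.39, SE 0.15, adjusted p = 0.0282), and was not called under mitoxantrone (log2 change -0.01, adjusted p = 0.948). Its mitoxantrone libraries had 93.0, 137, 159.6 and 139.9, with replicate 1 below and the others above all controls, and without replicate 1 the change was 0.15 (adjusted p = 0.323). Without that library the changes of EGF, NRG4 and NRG2 against the control were -0.53, -2.03 and -2.46, all still called. NRG3 had 6, 8 and 1 reads over the control, pyrimethamine and mitoxantrone libraries.

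Genes that act on the ligands and receptors went both ways. The counts of the lists that follow stand beside 53.3% of all tested genes called under pyrimethamine (26.4% higher, 26.9% lower) and 69.3% under mitoxantrone (33.5% higher, 35.8% lower). The medians stand beside medians over all tested genes of 0.0018 and -0.0080. Of 10 genes of ligand shedding and trafficking, 8 were tested, and under pyrimethamine 2 were higher, 3 lower and 3 not called (median log2 change -0.02). FRMD8, a partner of the iRhom proteins that guide ADAM17, rose by 0.42 under pyrimethamine and fell by 0.59 under mitoxantrone on the log2 scale. RHBDF2, which encodes an iRhom, fell by 0.40 under pyrimethamine. ADAM17, the main sheddase of AREG, TGFA and HBEGF, had changes of -0.14 (adjusted p = 0.0028) under pyrimethamine and 0.16 (adjusted p = 6.0e-04) under mitoxantrone. Under mitoxantrone 4 of the 8 were higher and 4 lower (median 0.02), with ADAM9 highest at 0.46, and without mitoxantrone replicate 1 these were 4 and 2. Rescaled to an equal total per library, 5 of the 8 were called.

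Of 17 receptor inhibitors and degradation factors, 6 were higher, 6 lower and 5 not called under pyrimethamine (median log2 change 0.01), where 53.3% of all tested genes were called. ERRFI1, whose protein binds the EGFR kinase domain and blocks it, rose from 2561 to 4857 normalized counts on average, a log2 change of 0.92 (SE 0.050, adjusted p = 3.44e-12). LRIG3, a relative of the receptor inhibitor LRIG1, fell by 0.49. Under mitoxantrone 9 were higher, 6 lower and 2 not called (median 0.25), beside 69.3% called of all tested genes. LRIG1 rose from 1543 to 3066, a log2 change of 0.99 (SE 0.067, adjusted p = 3.09e-11), and SOCS4, which marks EGFR for degradation, fell by 0.41.

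Of 14 genes of receptor endocytosis and recycling, 3 were higher, 2 lower and 9 not called under pyrimethamine (median 0.01), and 8 were called after quantile normalization or rescaling to an equal total. Under mitoxantrone 2 were higher, 7 lower and 5 not called (median -0.12). The shares called of all tested genes were 53.3% and 69.3%. AP2M1, a subunit of the clathrin adaptor that gathers EGFR into pits, rose by 0.32 under pyrimethamine and fell by 0.44 under mitoxantrone. USP8, a deubiquitinase of endosomes, fell by 0.31 under pyrimethamine, and EPS15, an endocytic adaptor, rose by 0.24 under mitoxantrone.

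Downstream of the receptors, of 12 adaptor and Ras genes 4 were higher, 2 lower and 6 not called under pyrimethamine (median 0.0058), and 6 higher, 4 lower and 2 not called under mitoxantrone (median 0.10). Of all tested genes, 53.3% and 69.3% were called. GAB2, a docking protein, rose by 0.76 under pyrimethamine, where NF1, a Ras GTPase activator, fell by 0.19. RASA1, another Ras GTPase activator, rose by 0.65 under mitoxantrone, where SHC1, an adaptor that binds the receptors, fell by 0.28. Of 8 Raf, MEK and ERK genes, 4 were higher, 2 lower and 2 not called under each drug (medians 0.07 and 0.05), and without mitoxantrone replicate 1 the mitoxantrone counts were 2, 3 and 3. MAPK3, which encodes ERK1, fell by 0.60 under pyrimethamine, while the scaffold gene KSR1 rose by 0.41 under pyrimethamine and fell by 0.53 under mitoxantrone. Of 8 tested PI3K and Akt genes, 4 were higher, 3 lower and 1 not called under each drug (medians 0.07 and 0.08). PIK3R1, a regulatory subunit of PI3K, fell by 0.47 under pyrimethamine and by 0.28 under mitoxantrone.

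Of 16 genes of ERK output and feedback, 10 were higher under pyrimethamine, 3 (EGR1, SPRY2 and IER3) lower and 3 not called. The median log2 change was 0.21 against 0.0018 over all tested genes, of which 53.3% were called. ETV5, an ERK-induced transcription factor, rose most, by 0.76, and EGR1, an immediate early factor, fell by 0.65. DUSP4, DUSP5 and DUSP6, phosphatases that switch ERK off, rose by 0.61, 0.54 and 0.47. Under mitoxantrone 5 were higher, 3 lower and 8 not called, with a median of 0.02, where 69.3% of tested genes were called. Whether the list differed between the drugs was not tested. The 3 that fell were DUSP5 (-1.13), DUSP4 (-0.76) and DUSP6 (-0.56). SPRED3, a Ras pathway inhibitor, had the highest rise, 1.2, from 27.4 to 63.4 normalized counts on average. The other called rises, at higher counts, were ETV4 (0.74), EGR1 (0.72, from 2847 to 4703), PHLDA1 (0.57) and CCND1 (0.51).

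**Figure D5:**
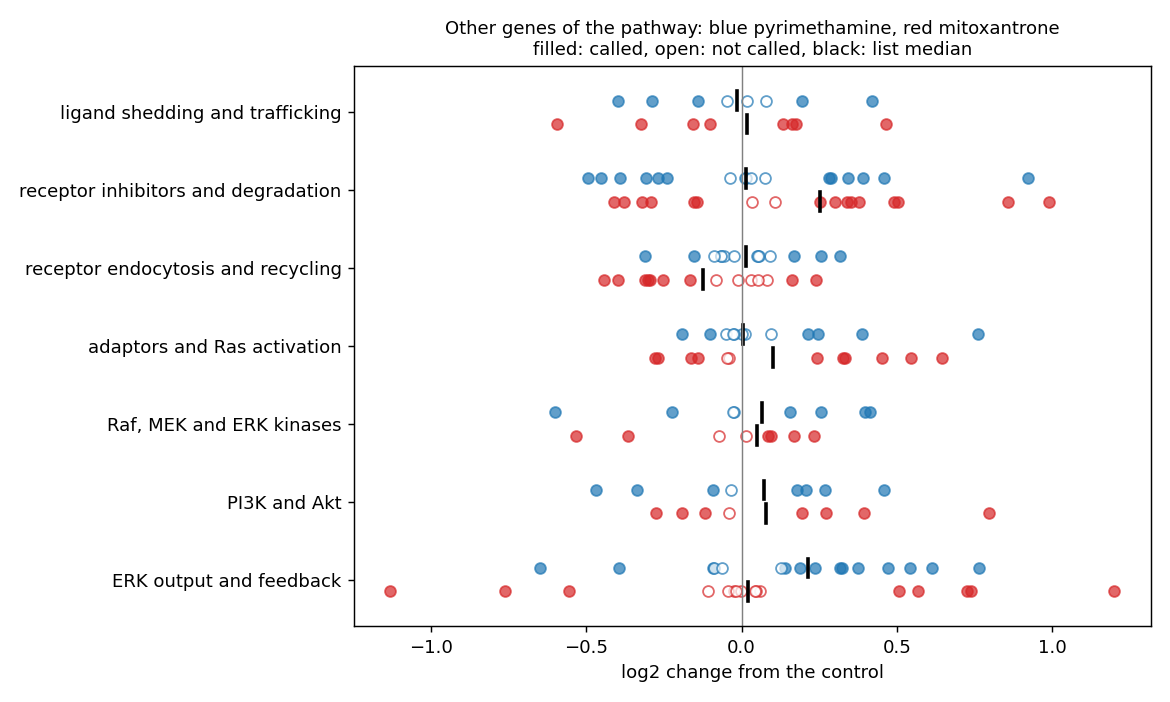
Log2 change from the control (horizontal axis) of each tested gene in 7 lists of the pathway, pyrimethamine in blue and mitoxantrone in red, filled where called, with black marks at the list medians. The median of the ERK output and feedback genes is 0.21 under pyrimethamine and 0.02 under mitoxantrone.

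For each tested member, the protein-coding genes with the most similar profile were found by Pearson's r of log2 values over the 12 libraries, among 11515 genes whose mean reached 100 in some group. These r values mix differences between the 3 groups with spread within groups, which were not separated, and they are given as a description. EGFR ran closest to UHRF1BP1 (r = 0.995) and MPDZ (0.992), and NRG1 to NUP153 (0.993) and TMTC1 (0.992). HBEGF ran closest to GRPR (0.996), the gastrin-releasing peptide receptor, which averaged 218 normalized counts in control libraries, 684 with pyrimethamine and 44.7 with mitoxantrone, and to RFLNB (0.996). AREG ran with ANXA1 (0.992), which averaged 31071, 56295 and 33166 in that order, and EI24 (0.989). For TGFA the closest was UPP1 (0.979), for ERBB3 they were RELT (0.992) and TRAFD1 (0.991), and for ERBB2, whose level hardly moved, MCM2 (0.934) and ANAPC2 (0.932).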

How the data were processed

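RNA of KYSE70 cells was sequenced in 12 libraries, 4 per group. The builds hg38 and mm10, and the tools featureCounts 1.5.1, STAR 2.6.90c, cutadapt 1.12 and FastQC 0.11.5, are named per the submitters' processing notes; every gene identifier is human. Annotation, strand setting and normalization tool are not given in the sources used here. The authors deposited a normalized signal per gene, which equaled whole reads (100% within 0.01 read) divided by 1 factor per library, and these factors equaled median-of-ratios factors computed from the recovered reads.

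limma 3.58.1 (R 4.3.3) was fitted to log2(value + 1) of 16950 genes over 12 libraries with group as the only term and a variance trend, two-sided, adjusted by Benjamini-Hochberg over all genes, and called at 0.05. Log2 changes understate changes of low genes. Ratios were compared by exact permutation. On the recovered reads, DESeq2 1.42.0 (9318 genes called for pyrimethamine and 11834 for mitoxantrone against the control) and edgeR 4.0.16 (9286 and 11765) served as alternatives to limma (9042 and 11745). Functions were tested on simulated data. Coordinates and exon lengths are from GENCODE 29 and promoters from RefSeq. Confidence intervals are limma's and rest on the spread between libraries, and the limits for 0 reads cover counting error only.

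Members and lists were chosen with earlier results of these data known. All members are named, and from each list the called gene with the highest rise and the deepest fall from the control (higher group mean 50 or more) and, for likeness, the 2 closest genes. Some genes that this rule picks are not reported here. ADAM17, the DUSP genes, the ERK output and feedback genes named for a count or as other called rises, and marker genes were chosen after their values were seen. An AREG to EREG ratio was planned and is not given, since EREG had almost no reads, so 6 ratio tests were made.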

Additional observations from a re-analysis of the deposited data

Results flagged for a closer look

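Of 27 groups of 4 libraries (7 members and 2 ratios in 3 groups), 1 held a library whose gap to its nearest neighbor was large for the range of the group, and chance gives about 1 in 20. It is EGFR under pyrimethamine, where replicate 2 had 23387 normalized counts against 22718 to 22797 in the other libraries, a gap of 0.881 of the range. The whole range of that group is small beside its distance from the control libraries, at 34130.2 or more.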

How the results depend on the processing

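Of 525 values of the 21 member changes under alternatives, 493 kept direction and side of the threshold, 23 lost the call, 8 gained one and 1 turned. All that lost or turned belong to mitoxantrone against the control, for EGFR, ERBB2 and TGFA. The value that turned is EGFR under quantile normalization (-0.060), and the cause was not tested. Without a variance trend, 3 members were called there in place of 6. Per kb of the longest transcript, control levels were 3831 for EGFR, 935 for ERBB2, 20.4 for ERBB3, 2729 for AREG, 122 for HBEGF, 1848 for TGFA and 2312 for NRG1, higher since the length is shorter. The ERBB2 to EGFR ratio between mitoxantrone and the control ranged from -0.30 to -0.22 when 1 library was left out.

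Replicate numbers did not pair the libraries: deviations of same-numbered libraries correlated at -0.13 to 0.12. With the replicate block, AREG was also called under mitoxantrone (adjusted p = 0.0269), which made 7 members called, and counts over all genes were 9057 for pyrimethamine and 11749 for mitoxantrone against the control, beside 9042 and 11745. Paired by number, the ratio differences stayed at 0.67, -0.26 and -0.93 for ERBB2 and 1.52, -1.09 and -2.61 for ERBB3, with an exact permutation p of 0.125, the smallest that 4 pairs allow. Without mitoxantrone replicate 1, chosen as an alternative after seeing the data, as were the shares per kb of the longest transcript, the ERBB4 change under mitoxantrone turned from -0.01 to 0.15 against the control, and its call against pyrimethamine was lost (-0.25, adjusted p = 0.0909). Depth limits EREG and BTC, for which no difference was detectable.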
